A study of Gallus gallus with 300 samples.

Results

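Supporting cells are the non-sensory cells of the utricle, and they are described here from single-cell transcriptomes of the chicken utricle sensory epithelium. Of 300 sorted cells, 24 were left out because they held under 1000 detected genes or under 50000 counts. Members were chosen by their own expression values: a kept cell was called a supporting cell when its mean log2(CPM + 1) over the gap junction genes GJB6 and GJB2, the glutamate transporter gene SLC1A3, the otogelin-like gene OTOGL and the Notch ligand gene JAG1 was at or above its mean over the hair cell genes OTOF, CHRNA10, TMPRSS3, LRTOMT and CLIC5. CPM are counts per 1000000 counts of the cell. The rule gave 94 supporting cells, 34.1% of the cells kept (28.5 to 39.98%, exact binomial 95% interval covering counting error). By plate the share ran from 24% on plate 3 to 49.2% on plate 4, a spread that the interval does not cover. Well plates 2 to 6 held 15, 12, 30, 22 and 15 supporting cells and 34, 38, 31, 41 and 38 other cells.

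All cells were wild type, came from utricles at posthatch day 7 with no treatment named in the labels, so the supporting cells and the other cells are classes of 1 tissue and not conditions. Epithelia were separated enzymatically from the stroma, pooled within an experiment and dissociated, and viable cells were sorted into wells, 1 library per cell, by the full-length Smart-Seq2 method. No label gives a cell's animal or ties a sort batch to a plate, so the class counts as 1 sample, nothing was tested, and animal, sort batch and plate cannot be told apart. A gene's level is its mean CPM over the cells of a plate, averaged over the 5 plates, and ± gives the SD of the plate means (n = 5 plates, unless stated otherwise).

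Supporting cells surround the hair cells, keep the ionic and metabolic milieu of the epithelium, and secrete the extracellular matrix that couples it to the otoconia. They are joined to each other by gap junctions, and Notch signalling from hair cells holds them in the supporting fate. In birds, unlike in adult mammals, vestibular supporting cells can divide and give rise to new hair cells throughout life.

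The gate itself chose the members, so its genes are given only as a description. GJB6 reached 10 CPM in 93 of the 94 cells, GJB2 in 91, SLC1A3 in 81, JAG1 in 79 and OTOGL in 72. Together they took 3.11% ± 0.341 of the reads of supporting cells and 0.0320% ± 0.0130 of those of other cells. On the hair side CHRNA10 had 0 counts in the 94 cells. These 10 genes were set aside from here on.

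The supporting side led by a median of 10.0 on the log2 scale, from 0.62 to 12.6. A total of 91 cells led by 4.34 or more, and 3 cells by less than 2. On the other side of the line the nearest cells had margins of -0.28, -0.66 and -0.69, and 7 other cells were above -2. The 3 narrow cells stood apart from most of the class. The first, at 0.62 on plate 4, carried both sides of the gate, with 3884 CPM of GJB6 and 2871 CPM of OTOF, and it had the highest summed hair cell markers of the class, 9794 CPM. The second, at 1.32 on plate 2, had JAG1 at 9.90 CPM and GJB6 at 7.82 CPM as its only gate genes above 0, no counts of the 17 supporting cell markers, and 31202 CPM in the 12 Schwann and satellite glia markers found in the files, most of it MBP with 19518 CPM and PMP22 with 8781 CPM. The third, at 1.37 on plate 4, had 113.96 CPM of GJB6 as its only gate gene and 30656 CPM in the 13 immune markers, of which the class II invariant chain gene CD74 gave 16363 CPM. Over the 91 cells that led by more, the highest sums of the glial and immune lists were 3002 CPM and 2474 CPM. A cell of plate 4 among these 91, with a lead of 4.96, also had no counts of the 17 supporting cell markers. It held 9714 CPM of GJB6 and 3008 CPM of GJB2.

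**Figure D1:**
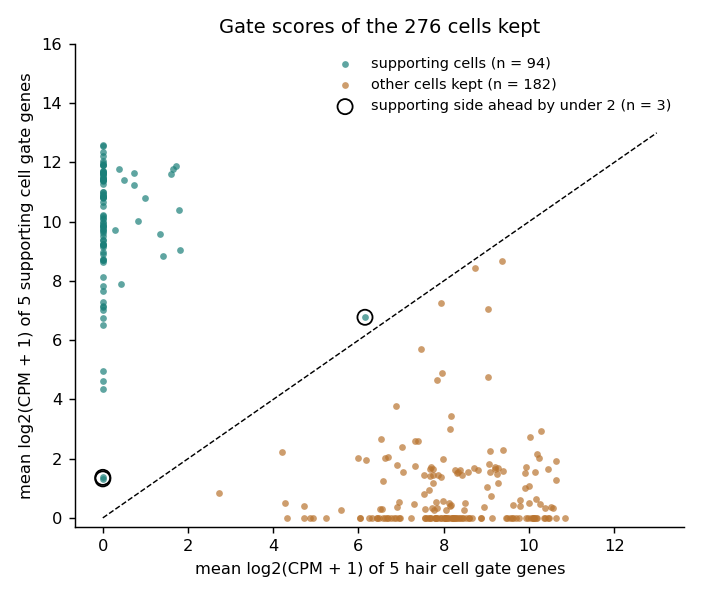
Each point is 1 kept cell, placed by its mean log2(CPM + 1) over the 5 hair cell gate genes and over the 5 supporting cell gate genes. The dashed line is the rule, circles mark the 3 supporting cells whose lead is under 2 (the other 91 lead by 4.34 or more), and 2 of the circles overlap near the origin.

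Supporting cells held 73746 to 808619 counts, with a median of 322279, against a median of 432176 in other cells. The median supporting cell had 1823.5 genes at 1 count or more and the median other cell 3469. Thinned to 50000 counts each, the medians were 1635.5 and 2938 genes, so fewer genes were seen per supporting cell at equal depth too. No cell had the same values as another, and the correlation of log2(CPM + 1) between pairs of supporting cells had a median of 0.283 and reached 0.691.

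Markers that the gate did not use were read for the class label, although they ride on the gate and are no independent support. A gene was called 4-fold higher when the ratio of (level + 1) to that of other cells was 4 or more and the gene was higher on each of the 5 plates, and 4-fold lower in the same way. Of the 15 supporting cell markers that could be compared, 9 were 4-fold higher and 0 were 4-fold lower, where 6.65% of the 10667 genes compared were 4-fold higher and 11.5% were 4-fold lower. They were the tectorin gene TECTA, the Notch genes HEYL, HES5, NOTCH1 and LFNG, the connexin gene GJA1, SOX9, EPCAM and CDH1. The progenitor factor gene SOX2, often used as a supporting cell marker, was low in both classes, with 2.40 ± 1.84 CPM in supporting cells and 4.11 ± 4.23 CPM in other cells, and otogelin (OTOG) had 901 ± 339.7 CPM and 789 ± 508 CPM. Of 27 hair cell markers, 25 were 4-fold lower and 0 were 4-fold higher, and TMC2, KCNA10 and RIMS2 had 0 counts. The calcium-binding gene OCM had 34.96 ± 21.98 CPM in supporting cells, with 22.3% of cells at 10 CPM, against 9680.01 ± 1384 CPM in other cells.

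Markers of other cell types were summed over all 94 cells, the 3 narrow ones included. The 13 stromal markers summed to 18.4 ± 40.6 CPM, with COL1A1, DCN, LUM and 6 more at 0 counts. The 6 endothelial and mural markers summed to 116.5 ± 90.9 CPM and the 7 melanocyte markers to 119.1 ± 98.3 CPM, with 3951 CPM of melanocyte markers in the narrow cell with the immune marker sum. Of 12 erythroid symbols looked up, 0 matched a gene row, so erythroid content could not be read. The neuron markers summed to 636 ± 167.2 CPM, led by the LIM factor gene ISL1 with 269.7 ± 107.9 CPM and the neurofilament gene NEFL with 131.9 ± 125.1 CPM, while NEFM, NEFH, TUBB3 and GAP43 were at 0 counts. ISL1 is also in the inner ear transcription factor list. The Schwann and satellite glia markers summed to 822 ± 1100 CPM, against 67.7 ± 27.7 CPM in other cells. The immune markers summed to 506 ± 446 CPM, against 54.4 ± 17.6 CPM. In other cells the stromal, endothelial and mural, melanocyte and neuron markers summed to 19.2 ± 15.5, 44.8 ± 22.2, 77.6 ± 28.7 and 720 ± 160 CPM. Over the 91 cells the highest sums in 1 cell were 6622 CPM of neuron markers and 1426 CPM of stromal markers. The part of these sums in the results was not tested.

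The reads of supporting cells were spread over many genes, with a small group at the top. Of 7699 measured genes (10 CPM in at least 5 supporting cells), 1.38% had a level of at least 1000 CPM, 2070 genes of at least 100 CPM and 7108 of at least 10 CPM, and the median was 49.6 CPM. The 10 highest genes took 6.93% ± 0.868 of the reads, the 100 highest 25.2% ± 1.499 and the 500 highest 45.7% ± 1.80. In other cells the same 10 genes took 2.55% ± 0.176 and the same 100 genes 15.8% ± 0.935. Of the 100 highest genes of supporting cells, 35 were also among the 100 highest of other cells. Of the same 100, 50 were 4-fold higher in supporting cells and 3 were 4-fold lower, where 6.65% and 11.5% of all genes compared were. Picking genes by their level in supporting cells favours the higher side, so this split is partly built in. Levels are shares of reads and are not divided by transcript length, so the order of 2 genes also carries their lengths.

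C9ORF58 stood first. In human this symbol is an older name of AIF1L, an actin-associated protein. Over the 94 cells its lowest, median and highest values were 148.9, 12476 and 32611 CPM, and its plate means were 7892, 10703, 12447, 13189 and 17354 CPM on plates 2 to 6. Its level was 12317 ± 3476 CPM, or 12545 CPM over the 91 cells, against 188.6 ± 110.8 CPM in other cells, where 42.9% of cells reached 10 CPM. It ranked first on plates 3 to 6 and came after GAPDH on plate 2. Outside the gate genes it was the highest gene of 34 of the 94 cells, and 19 other genes shared the remaining cells. The highest gene outside the gate took 0.905 to 5.06% of a cell's reads, with a median of 1.77%.

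ITM2A, which encodes a membrane protein with a BRICHOS domain, was second with 7784 ± 1191 CPM in supporting cells and 3079.99 ± 243.4 CPM in other cells, short of 4-fold. Its values over cells were 81.9, 7814 and 22098 CPM, and it was between ranks 2 and 5 on every plate. MATN4, a matrilin of the extracellular matrix, had 6144 ± 2653 CPM against 46.8 ± 37.9 CPM, and AGR3, an endoplasmic reticulum protein of the disulfide isomerase family, had 5843 ± 638 CPM against 53.5 ± 27.9 CPM. By plate AGR3 held ranks 6 to 11 and MATN4 ranks 2 to 20. The uncharacterised gene LOC419390 had 6179 ± 2199.7 CPM against 212.7 ± 216.8 CPM, with 0 counts in its lowest cell and a median over cells of 2949.8 CPM. SPARC, a collagen-binding matrix protein, had 4411 ± 1799 CPM against 41.4 ± 29.2 CPM and a highest cell of 15094 CPM.

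Other genes of the first 15 belong to the cell surface, nucleus and cytoskeleton. APLP2, of the amyloid precursor family, had 5243 ± 1222 CPM in supporting cells and 335 ± 66.5 CPM in other cells. SYNE2, the nesprin that ties the nuclear envelope to the cytoskeleton, had 5083 ± 2298 CPM against 493 ± 248.1 CPM, and beta-actin (ACTB) 6572 ± 1241 CPM against 1166 ± 154.3 CPM. BTG1, an antiproliferative factor that is also in the immediate early list, had 4614 ± 546 CPM against 415 ± 48.7 CPM. Like ITM2A, the genes GAPDH, HSP90AA1, HSPA8 and FTH1 of the first 15 did not differ 4-fold from other cells. GAPDH had 7177 ± 1441 CPM against 8612 ± 539 CPM, the chaperone genes HSP90AA1 and HSPA8 had 6706 ± 2132 CPM and 4829 ± 413 CPM against 9784 ± 1512 CPM and 7823 ± 1148 CPM, and the ferritin heavy chain gene FTH1 had 5318 ± 735 CPM against 2033 ± 280.4 CPM.

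**Figure D2:**
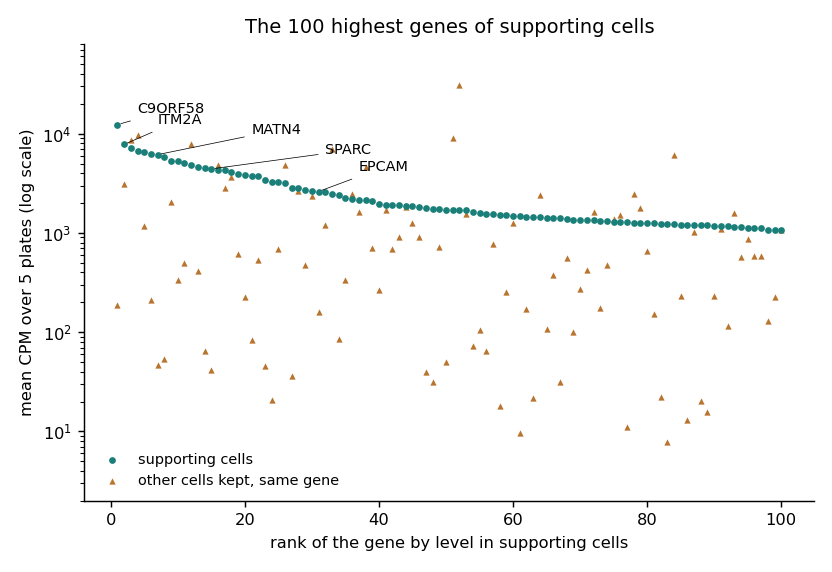
Mean CPM over 5 plates (log scale) of the 100 genes of highest level in supporting cells, gate genes left out, by rank, with the level of the same genes in the other cells kept as triangles. C9ORF58 heads the order, and the triangles are 4-fold lower for 50 of the genes and above the circles for 19. The genes were picked by their level in supporting cells, which favours triangles below the circles.

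Few genes were detected in nearly every supporting cell. At 10 CPM, 86 of the 7699 measured genes (1.12%) reached at least 90% of supporting cells. Over the 10667 genes compared this was 0.806%, against 2.30% in other cells. Thinned to equal depth the shares were 0.722% and 2.08%. Of the 86 genes 25 were ribosomal protein genes, 6 were of the glia-type metabolism list and 6 were translation factors. Another 5 were chaperone or oxidative stress genes, and 0 of 70 measured oxidative phosphorylation genes were among them. The gap junction, Notch, Wnt, FGF and BMP and retinoic acid lists had 0 of 3, 19, 20, 23 and 6 measured members among them. With so few members, 0 is near the 1.12% of all measured genes. The gap junction count leaves out the gate genes GJB6 and GJB2, which reached 10 CPM in 93 and 91 of the 94 cells.

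Among the genes that reached 10 CPM in all 94 cells were C9ORF58, ITM2A, GAPDH, ACTB and FTH1, the polyubiquitin gene UBB, basigin (BSG), the mitochondrial calcium-binding gene EFHD1 and the translational repressor gene GIGYF2. UBB had 4094 ± 625 CPM and a lowest cell of 967 CPM. GIGYF2 had a far lower level, 766 ± 114.3 CPM, with values over cells of 40.6, 681 and 2791 CPM. Some genes of high level were missing from part of the cells. HES5 reached 10 CPM in 70 of 94 cells although its median cell had 2477 CPM, and LCAT, the cholesterol-esterifying enzyme, had 3272 ± 1117 CPM with 74 cells at 10 CPM.

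For each list below, the shares over all 10667 genes compared were 6.65% 4-fold higher and 11.5% 4-fold lower. Of the function lists, that of the otolithic membrane and its matrix had the highest median ratio over other cells. Of 14 compared members 7 were 4-fold higher and 1 was 4-fold lower, with a median log2 ratio of 5.43 where all genes compared had a median of -0.08. Summed over 16 genes the list took 18410.3 ± 3689 CPM in supporting cells, with 379 to 48767 CPM over cells, and 3522 ± 1119 CPM in other cells. OTOL1, the otolin of the otoconial matrix, had 1275 ± 523 CPM in supporting cells, with values over cells of 0, 1029 and 5169 CPM, against 11.04 ± 6.93 CPM. OTOP1, a proton channel needed for otoconia, had 1464 ± 419.97 CPM against 9.57 ± 7.70 CPM, otoancorin (OTOA) 550.3 ± 211.7 CPM against 11.9 ± 3.05 CPM, the calcium-binding matrix gene SMOC2 659 ± 149.3 CPM against 42.96 ± 36.9 CPM, and TECTA 303 ± 98.003 CPM against 2.51 ± 2.79 CPM. The otoconial protein gene OC90 averaged 468 ± 1046 CPM from 4 of 94 cells at 10 CPM, nearly all of it from plate 2, with 2339, 0, 0, 1.98 and 0 CPM on plates 2 to 6. Without plate 2 the median of the list was 4.14.

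The basement membrane and fibrillar matrix was present at lower levels. Of 23 compared collagen, laminin and integrin genes 10 were 4-fold higher and 0 were 4-fold lower, with a median log2 ratio of 3.63. The fibril-associated and fibrillar collagen genes COL9A1 and COL11A1 led with 554 ± 246.5 CPM and 388 ± 111.4 CPM, against 20.2 ± 12.4 CPM and 5.87 ± 4.80 CPM. The integrin subunit gene ITGA6 had 199.9 ± 118.7 CPM against 15.2 ± 12.4 CPM, and COL1A1 and fibronectin (FN1) had 0 counts in supporting cells.

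In the Notch pathway, 10 of 22 compared genes were 4-fold higher and 3 were 4-fold lower, with a median log2 ratio of 2.30 (1.63 without plate 5). Over all genes compared 6.65% were 4-fold higher and 11.5% 4-fold lower, so the lower count was near the share of all genes. The effector gene HES5 was the highest, with values over cells of 0, 2477 and 50596 CPM and plate means of 5556, 3996, 2731, 6699 and 3668 CPM. Its level was 4530.1 ± 1583 CPM in supporting cells and 64.6 ± 36.2 CPM in other cells. Among the receptors, NOTCH1 had 94.7 ± 30.3 CPM against 0.444 ± 0.502 CPM and NOTCH2 79.5 ± 39.2 CPM against 6.23 ± 8.25 CPM. The effector gene HEYL had 515 ± 147.3 CPM against 5.66 ± 11.04 CPM, with a log2 ratio of 6.27 that was 8.16 without plate 5. HEY1 had 185.7 ± 80.3 CPM against 2.85 ± 3.26 CPM, the glycosyltransferase gene LFNG 283.4 ± 66.05 CPM against 30.9 ± 13.2 CPM, and the receptor-cleaving protease gene ADAM10 320.04 ± 162.7 CPM against 55.8 ± 39.1 CPM. The 3 lower genes encode ligands. The ligand gene JAG1, a gate gene at 10 CPM in 79 of the 94 supporting cells, was not compared. JAG2 had 17.8 ± 24.9 CPM against 147.1 ± 21.9 CPM, and DLL4 had 0 counts in supporting cells against 15.7 ± 7.66 CPM. DNER, an atypical ligand, had 167.1 ± 86.3 CPM against 716 ± 103.2 CPM.

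Secreted modulators headed the Wnt list, of which 7 of 31 compared genes were 4-fold higher and 4 were 4-fold lower (median log2 ratio 1.38). Over all genes compared 6.65% were 4-fold higher and 11.5% 4-fold lower, so the lower count was near the share of all genes. DKK3, of the dickkopf family, had 2861 ± 1133 CPM, with values over cells of 0, 2183 and 10082 CPM, against 36.1 ± 25.4 CPM in other cells. The Wnt-binding gene FRZB had 669 ± 188.9 CPM against 18.4 ± 26.1 CPM and was at 10 CPM in 83 of 94 cells. SFRP2 and SFRP1, of the same family as FRZB, had 71.7 ± 47.8 CPM and 39.95 ± 59.04 CPM, against 0 counts and 0.0945 ± 0.211 CPM. The ligand gene WNT7A had 41.1 ± 35.6 CPM against 0.0670 ± 0.0612 CPM, and beta-catenin (CTNNB1) had 466 ± 174.8 CPM against 90.7 ± 75.3 CPM. Among the genes that were 4-fold lower were the R-spondin gene RSPO3, with 2.36 ± 5.27 CPM, all of it in 1 narrow cell, against 45.01 ± 14.9 CPM, and the R-spondin receptor gene LGR6, with 1.86 ± 1.43 CPM against 17.7 ± 5.28 CPM.

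Of 27 FGF and BMP genes, 6 were 4-fold higher and 2 were 4-fold lower, where 6.65% and 11.5% of all genes were. The median log2 ratio was 0.91, and over the 91 cells the counts were 6 and 3. The higher genes were the receptor gene FGFR1 with 127.8 ± 41.6 CPM against 4.30 ± 5.22 CPM, the feedback inhibitor genes SPRY2 with 558 ± 353 CPM against 31.1 ± 16.998 CPM and SPRY1 with 336 ± 299.7 CPM against 17.2 ± 10.1 CPM, the phosphatase gene DUSP6, and ID1 and ID2, inhibitors of basic helix-loop-helix factors. BMP2 and the receptor gene BMPR2 were the lower ones, at 21.04 ± 29.003 CPM and 12.3 ± 11.5 CPM against 502 ± 115.9 CPM and 58.7 ± 51.4 CPM.

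Retinoic acid genes were few and uneven. Of 11 compared, 3 were 4-fold higher and 1 was 4-fold lower, with a median log2 ratio of -0.14 (0.27 without plate 2). The synthesis gene ALDH1A3 had 818 ± 456 CPM against 17.4 ± 17.3 CPM and was at 10 CPM in 57 of the 94 cells, 60.6% (50.02 to 70.6%, exact binomial interval), and in 5.49% of the deeper other cells. The retinol uptake receptor gene STRA6 had 126.8 ± 128.4 CPM against 0.726 ± 0.853 CPM, with plate means of 115.1, 352, 60.6, 61.3 and 45.5 CPM, and CRABP1, a retinoic acid-binding protein, had 26.7 ± 42.3 CPM against 1354 ± 325 CPM. Over the 91 cells CRABP1 had 7.83 CPM.

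Of 31 inner ear transcription factor genes, 4 were 4-fold higher and 1 was 4-fold lower, where 6.65% and 11.5% of all genes were. NFIB had 557 ± 122.3 CPM against 30.5 ± 16.3 CPM, SOX10 339 ± 228.3 CPM against 1.41 ± 2.10 CPM, the hypoxia-inducible factor gene EPAS1 276.8 ± 144.3 CPM against 1.86 ± 1.69 CPM and SOX9 50.3 ± 17.4 CPM against 0.523 ± 0.575 CPM. SOX10 is also in the glial list, and it reached 10 CPM in 57 of the 94 cells, whereas the myelin gene MBP did so in 24.

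Epithelial junction genes included 11 of 31 that were 4-fold higher and 2 that were 4-fold lower (median log2 ratio 1.66), and over the 91 cells 12 and 2. EPCAM, an epithelial adhesion molecule, had 2612 ± 721 CPM against 160.9 ± 41.5 CPM and 88 of 94 cells at 10 CPM. The tight junction genes CLDN1 and CLDN9 had 1773 ± 420.1 CPM and 462 ± 140.4 CPM, against 39.8 ± 32.2 CPM and 12.4 ± 12.5 CPM. The desmosome genes DSP and PKP2 had 177.3 ± 103.1 CPM and 209.03 ± 202.7 CPM, against 10.001 ± 12.9 CPM and 12.3 ± 11.3 CPM. In the cytoskeleton list 8 of 43 genes were 4-fold higher and 4 were 4-fold lower, and over the 91 cells 8 and 5. Its higher members included the simple-epithelium keratin genes KRT7, with 1698 ± 609.9 CPM against 50.04 ± 20.5 CPM, and KRT19, with 517 ± 122.4 CPM against 42.1 ± 19.5 CPM, the actin-sequestering gene TMSB4X, with 1565 ± 414 CPM against 64.05 ± 37.7 CPM, and ezrin (EZR), with 331 ± 181.7 CPM against 6.74 ± 7.44 CPM.

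In the glia-type metabolism list, 7 of 26 compared genes were 4-fold higher and 2 were 4-fold lower. Cysteine dioxygenase (CDO1) had 1231 ± 225.9 CPM against 7.75 ± 5.16 CPM, the gamma-glutamyltransferase gene GGT1 552 ± 104.9 CPM against 2.59 ± 3.65 CPM, and the lysosomal gene PSAP 1331 ± 324 CPM against 176.6 ± 69.9 CPM. Creatine kinase B (CKB) was the highest 4-fold lower member, with 1685 ± 298.8 CPM against 30567 ± 2413 CPM. Of the ion and water transport list 3 of 19 genes were 4-fold higher and 3 were 4-fold lower, where 6.65% and 11.5% of all genes were. The potassium channel gene KCNJ16 and the sodium pump subunit gene ATP1B3 had 560.1 ± 248.8 CPM and 881 ± 270.2 CPM, against 17.96 ± 24.6 CPM and 132.6 ± 45.1 CPM, whereas the subunit gene ATP1B1 had 113.8 ± 103.95 CPM against 1037 ± 80.4 CPM. Besides the gate genes, 1 of 7 gap junction and pannexin genes was 4-fold higher and 1 was 4-fold lower. With 7 genes these counts are too few to set against the shares of all genes. The higher one was GJA1, with 103.98 ± 105.8 CPM against 1.47 ± 2.11 CPM.

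The large housekeeping lists did not separate the classes 4-fold. Of 71 ribosomal protein genes 0 were 4-fold higher and 1, RPL22L1, was 4-fold lower (median log2 ratio 0.39). Of 72 nuclear oxidative phosphorylation genes 0 were 4-fold higher and 1, COX6C, was 4-fold lower, with a median log2 ratio of -1.03. Of 22 translation factor genes 0 were past the fold in either direction. Chaperone and oxidative stress genes had 3 of 40 that were 4-fold higher, GPX8, DDIT3 and GPX1, where 6.65% of all genes were, and 1 that was 4-fold lower, GSTO1. DDIT3 had 40.1 ± 43.2 CPM over the 94 cells and 24.3 CPM over the 91, against 6.97 ± 2.45 CPM in other cells, and over the 91 cells 2 of the 40 were 4-fold higher, without it.

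Cell-to-cell variation was read as the coefficient of variation (CV, SD over mean) of CPM over the 94 cells. Because the CV falls with the mean, a gene's excess is log2 of its squared CV over the running median of about 200 genes of like mean, so that 1 means a squared CV 2 times that of its peers. Among 6223 genes of mean 20 CPM or more, 395 (6.35%) had an excess of 1 or more. Without each gene's own highest cell the count was 180, and over the 91 cells it was 375. The roughly 100 genes of highest mean share the last value of the running median, which lies above most of them, so their excess is set partly by that. CPM are not divided by transcript length, so genes of like mean CPM can differ in length. The part of length in the excess was not tested.

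**Figure D3:**
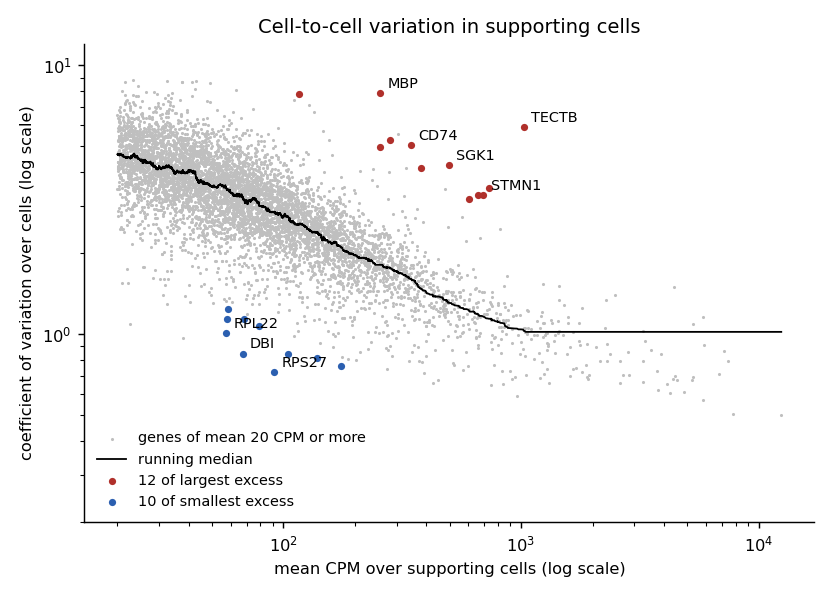
Coefficient of variation of CPM over the 94 supporting cells against mean CPM (both log scales), 1 point per gene of mean 20 CPM or more, with the running median as a line. Red points are the 12 genes of largest excess and blue points the 10 of smallest excess. TECTB, MBP and CD74 lie far above the line, RPS27 and DBI far below it.

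TECTB had the largest excess, 5.03. It encodes a tectorin of the otolithic and tectorial membranes and in mouse marks supporting cells of the striola, the central zone of the utricle. Of the 94 cells 12 reached 10 CPM, and its 3 highest cells had 43747 and 11251 CPM on plate 2 and 37861 CPM on plate 3. The 5 highest cells held 97.7% of the gene's summed CPM, and the median cell was at 0. Its plate means were 3667, 3216, 52.8, 42.9 and 26.1 CPM, and its excess over the 91 cells was 5.08. In other cells 9.34% reached 10 CPM.

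Several of the next genes were highest in 2 of the 3 narrow cells. For 4 of the 12 genes of largest excess, CD74, RGS2, IFRD1 and SQSTM1, the highest cell was the one with the immune marker sum, and for 3, MBP, SGK1 and PMP22, it was the one with the glial marker sum. MBP had an excess of 4.24 over all 94 cells and -0.99 over the 91, PMP22 3.23 and -0.66, and CD74 3.30 and 0.59. The signalling regulator gene RGS2 kept 2.88, and the kinase gene SGK1 2.39. The autophagy receptor gene SQSTM1 had 0.46 and IFRD1, an interferon-related regulator, 0.85. Of the 12 genes, 7 were also among the 12 of largest excess over the 91 cells, led there by TECTB, SLC25A29 and STMN1. COX6C was a like case outside the 12, with 2.75 over 94 cells and -1.68 over 91, and 16244 CPM in its highest cell.

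The remaining genes of largest excess were highest in cells other than the 3 narrow ones. SLC25A29, a mitochondrial carrier, had 13943 CPM in 1 cell of plate 3 and at most 2591 CPM in any other. The transcription cofactor gene LBH had 12886 CPM in a cell of plate 3, and TIPARP, a poly-ADP-ribose polymerase, 11640 CPM in a cell of plate 2. Across the 12 genes the highest cell held 25.9 to 81.4% of the summed CPM. Across the 10 genes of smallest excess it held 3.34 to 8.01%.

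STMN1, a microtubule regulator, had 21417 CPM in 1 cell of plate 4 and 4363 CPM in the next, although 60 cells reached 10 CPM. That cell led on the supporting side by 4.62 and held 4200.1 CPM of neuron markers. It had 5 of 13 late cell cycle genes at 10 CPM, with 735 CPM of CDK1, 359 CPM of CCNB2, 151.4 CPM of BIRC5 and 110 CPM of TOP2A. Of the rest of the 13, MKI67, CCNA2, CENPF, BUB1B, AURKA, PLK1, TPX2 and UBE2C were at 0 CPM in that cell. CCNB2 and TOP2A were each higher in another supporting cell. Outside the 13 genes that cell had 759 CPM of CKS1B and 608 CPM of CKS2, while RRM1 was at 0 CPM. Of the other 93 supporting cells 86 had 0 of the 13 genes at 10 CPM, 5 had 1, 1 had 2 and 1 had 3, and among other cells the highest number was 2. Of the 24 cell cycle genes compared, 3 were 4-fold higher and 0 were 4-fold lower, and over the 91 cells 3 and 1. The higher ones were the cyclin gene CCND1, with 226.7 ± 45.2 CPM against 10.6 ± 6.10 CPM, and the nucleotide synthesis genes RRM1 and TYMS, with 365 ± 111.5 CPM and 171.3 ± 85.4 CPM against 25.7 ± 18.9 CPM and 8.01 ± 5.10 CPM.

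The genes of smallest excess were at moderate levels and met in most cells. RPS27 had the smallest, -3.97, with a CV of 0.720, a level of 89.05 ± 9.90 CPM and values over cells of 0, 78.3 and 286.1 CPM. DBI, the acyl-CoA-binding protein, followed with -3.88, a CV of 0.846 and 69.8 ± 19.5 CPM against 12.5 ± 3.05 CPM in other cells. The others were RPL22, RPL39, RPL34, RPL36 and RPS15, PA2G4, which binds ribosomes, and the mitochondrial genes TOMM7 and ATP5E, and 54 to 89 of the 94 cells reached 10 CPM. Over the list of 69 ribosomal protein genes of mean 20 CPM or more the median excess was -1.59 and 0 had an excess of 1 or more. The translation factors were alike, with a median of -0.9987 and 0 of 21, and oxidative phosphorylation genes had -0.90 and 1 of 69.

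Immediate early genes varied more. Of 24 members of mean 20 CPM or more 7 had an excess of 1 or more, where 6.35% of all genes did, and the median excess was 0.39. They were SGK1, GADD45B, ATF3, NR4A2, NR4A3, CYR61 and CTGF. Over the 91 cells 5 of 23 had, and GADD45B with 0.94 and NR4A2 with 0.34 were under 1. GADD45B had 268.99 ± 454 CPM over the 94 cells, 151.7 CPM over the 91 and 12.4 ± 5.95 CPM in other cells, and its highest cell was the narrow one with the glial marker sum. ATF3, a stress-induced transcription factor, reached 10 CPM in 32 of the 94 cells, 34.04% (24.6 to 44.5%, exact binomial interval), with 7, 5, 12, 8 and 0 cells on plates 2 to 6 and 33.5% of other cells. EGR1 was broader, with 82 of 94 cells, values of 0, 2761 and 13455 CPM and an excess of -0.45. Of 28 genes compared, 8 were 4-fold higher in supporting cells and 0 were 4-fold lower, and over the 91 cells 7 and 1. Among the higher ones were EGR1 with 3814 ± 1821 CPM against 227.8 ± 116.1 CPM, the phosphatase gene DUSP1 with 1453 ± 421 CPM against 169.9 ± 35.1 CPM, JUN with 834 ± 302.5 CPM against 160.4 ± 70.8 CPM and FOS with 392 ± 149.1 CPM against 65.4 ± 16.1 CPM.

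**Figure D4:**
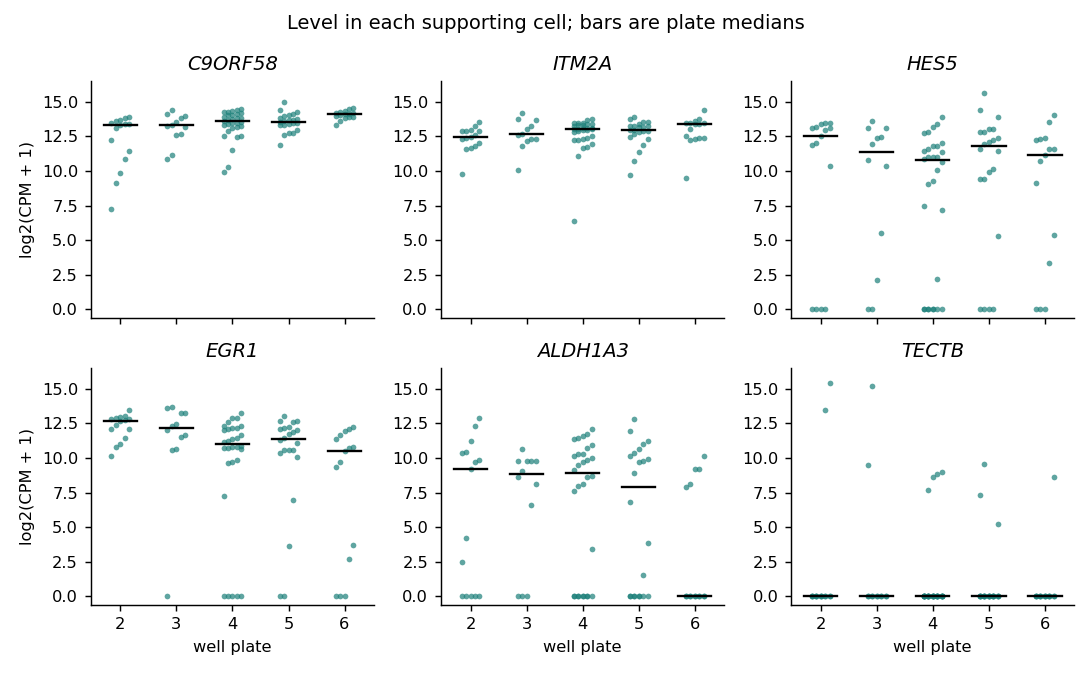
log2(CPM + 1) of 6 genes in each of the 94 supporting cells by well plate, with the plate median as a bar. C9ORF58 and ITM2A are above 0 in every cell, HES5, EGR1 and ALDH1A3 are at 0 in part of the cells, and TECTB is at 0 in most, with 3 cells far above the rest.

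Genes that went with those of largest excess were sought over the 94 cells by Spearman correlation of log2(CPM + 1), with the 3 closest partners of each of the 12 genes taken from 2645 candidates. The 36 correlations ran from 0.341 to 0.603, with a median of 0.418, and they describe sparse values of cells that share their libraries' depth. Each was picked as among the largest of 2645, so high values are partly built in. GADD45B, a growth arrest gene, was a partner of 6 of the 12 genes and CREM, a cAMP-responsive factor, of 3. The closest pair was TIPARP with GADD45B, at 0.603 overall and 0.465 to 0.896 within the 4 plates where both varied. IFRD1 with GADD45B had 0.552, and 0.476 to 0.792 within plates. SLC25A29 with CETP had 0.528, and 0.123 to 0.746 within plates. Some other pairs were negative on at least 1 plate, among them all 3 with CREM. Their lowest within-plate values were -0.133 with SGK1 and with TIPARP and -0.342 with IFRD1. PMP22 with GADD45B had 0.420, and -0.102 to 0.670 within plates.

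The first principal component of log2(CPM + 1) over the 7699 measured genes held 4.70% of the variance and followed the number of genes detected per cell. The Spearman correlation of the cells' scores with genes detected was 0.974 over 94 cells, and 0.938 to 0.989 within plates. Its low end, the side of cells with few genes, was led by OTOL1 and SLC15A2 and also held AGRN and C9ORF58. The second component held 2.19% and had a correlation of 0.186 with genes detected. Its upper end was led by C9ORF58, DKK3, IGFBP7, OTOL1, SYNE2, TECTA and LCAT, and its lower end by LRRN4, MYC, ZFAND2A and GADD45B. Over cells its scores had a correlation of 0.374 with the summed otolithic membrane list, and 0.226 to 0.559 within plates. With the summed immediate early list it was -0.408, and -0.692 to -0.233 within plates. With the gate margin it was 0.518, and 0 to 0.782 within plates. OTOL1, TECTA and SPARC of the upper end are in the otolithic list, and MYC and GADD45B of the lower end in the immediate early list. The correlations with these lists are thus partly built in.

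The low end of the second component came from few cells. Of its 12 leading genes at least 5 reached 10 CPM in 7 cells, 4 of them on plate 2, 1 on plate 3 and 2 on plate 4, and 66 cells had 0 of the 12. The narrow cell with the glial marker sum was among those on plate 2. In these 7 cells the immediate early sum was 14511 to 60098 CPM, where the median supporting cell had 14202 CPM. The 60098 CPM was that of the narrow cell, and the next highest of the 7 had 48510 CPM. MYC and GADD45B, among the 12 genes by which these cells were picked, are in the immediate early list. A raised sum is thus partly built in. LRRN4, a leucine-rich repeat membrane protein, had 8 cells at 10 CPM and plate means of 1843, 16.2, 19.9, 0 and 0 CPM. Computed over the 91 cells, 9 of the 12 genes at each end were the same.

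Differences between plates were small for the median gene. The median share of the sum of squares of log2(CPM + 1) between plates was 4.08% over the 7699 genes. The numbers of plates and cells alone, 5 and 94, give a mean share of 4.30%. A median of such skewed shares lies below their mean, so the 4.08% is not read against it. IFRD1 alone reached 25%, with 27.9% and plate means of 1372, 756, 933, 101.1 and 126.4 CPM. Its highest cell, with 19394 CPM, was the narrow cell of plate 4 with the immune marker sum. C9ORF58 had 20.1%. The immediate early list summed to 26767, 19798, 13163, 15634 and 8859 CPM on plates 2 to 6 in supporting cells and to 2506, 2567, 2230.2, 3132 and 2821 CPM in other cells, and the ribosomal protein list to 17196, 22060.1, 23941, 25584 and 34308 CPM and 15474, 19139.9, 17294, 18182 and 25349 CPM. Over the 91 cells the immediate early sums were 24386, 19798, 13098, 15634 and 8859 CPM and the ribosomal sums 17891, 22060.1, 22311, 25584 and 34308 CPM. In supporting cells plate 2 was highest for the first and lowest for the second, and plate 6 the reverse. In other cells plate 6 was highest and plate 2 lowest for ribosomal proteins, while the immediate early sums of the plates lay within 2230 to 3132 CPM. The part of plate, sort batch and animal in this was not tested.

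**Figure D5:**
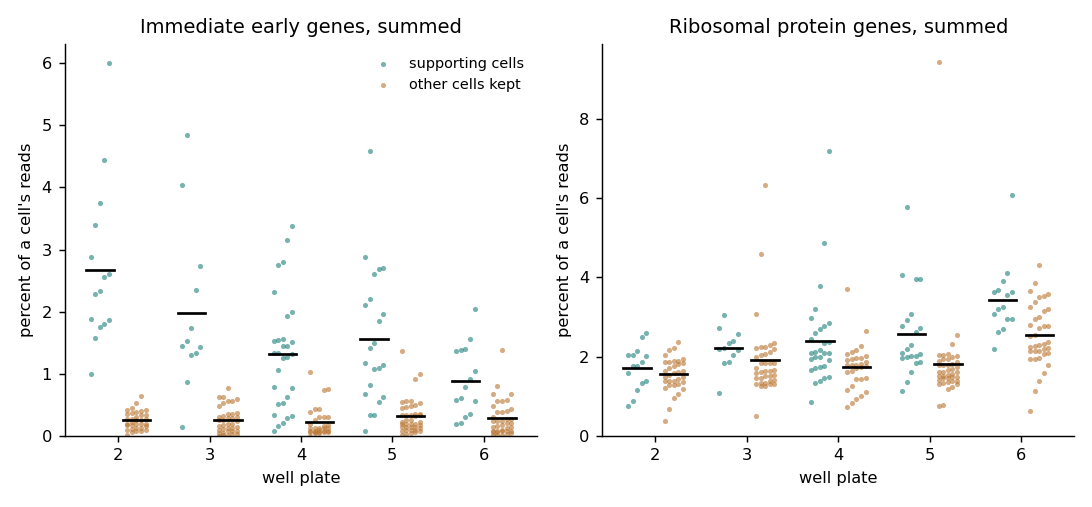
Summed CPM of the immediate early list (33 genes) and the ribosomal protein list (71 genes) as percent of each cell's reads (1% is 10000 CPM), by well plate, with supporting cells on the left of each pair and other cells kept on the right, and the mean of each group as a bar. Supporting cell means run from 26767 CPM on plate 2 to 8859 CPM on plate 6 for the first list, and from 17196 to 34308 CPM for the second.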

How the data were processed

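The authors deposited 1 table per cell with 13643 gene rows of expected counts, estimates that can hold fractions. The submitters' processing notes name STAR, RSEM and FastQC without versions, and neither the genome build nor the annotation is given in the sources used here. For 12 symbols with 2 rows the rows were added, giving 13631 symbols, of which 12304 match the RefSeq gene table. One gene that met a rule is not reported here. No coordinates are printed, since the build of the files is not named. Expected counts were not rounded, except for sums of counts and for thinning to 50000.

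CPM were computed from the total of each cell, with a pseudocount of 1 CPM in ratios and logs, which understates the ratio of low genes. Cells were sorted 1 to a well, and doublets were neither called nor checked for. Whether cells that carried both sides of the gate were doublets was not tested. Reads without molecular identifiers are not independent molecules, and intervals cover counting error alone. The members, gene lists and rules were chosen with earlier results of these data known. Named genes are the 15 of highest level, the highest of those 4-fold higher, the 12 of largest excess among genes of mean 50 CPM or more at 10 CPM in at least 10% of the cells, the 10 of smallest excess among genes of mean 50 CPM or more, the leading genes of the components, the closest partners of the 12, and the 2 to 5 highest members of each list with its member of largest excess. Other members named, such as those 4-fold higher or lower, were chosen after their values were seen. The code for the excess and the ratios was run on simulated counts, and that for thinning on some of the cells. The simulated counts varied less from cell to cell than these data. The runs checked the code and do not show how often the calls would be right here. As alternatives the cell filter, gate, scaling, thresholds and window were changed, and each plate was left out in turn. Python 3.11.15, numpy 2.4.6, pandas 2.3.3 and scipy 1.17.1 were used.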

Additional observations from a re-analysis of the deposited data

Results flagged for a closer look

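Of the values read over the 5 plates in supporting cells, those of the genes named and of 29 list sums among them, 25 (14.4%) had 1 plate whose gap to the nearest other plate took most of the range. For values drawn alike, chance gives about 1 in 20, but several of these genes were at 0 on 4 plates, were named for large excess or were named after their values were seen, so the share is not read against it. The groups are plates of 12 to 30 cells, and values are mean CPM unless given for 1 cell.

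On plate 2 the glial marker cell carried MBP, with 1335 CPM against 13.6 to 130.2 CPM on the other plates, PMP22, with 596.5 against 0 to 55.9, and the glial list, with 2787 against 229.6 to 388.3. Other high values of plate 2 were LRRN4 with 1843, ZFAND2A with 640.7, GADD45B with 1077, TIPARP with 1119, CYR61 with 1199, CTGF with 272.3, NR4A2 with 180.9, CDO1 with 1633, LOXHD1 with 25.48, MEIS2 with 8.84 and OC90 with 2339. The glial marker cell held 8382 CPM of GADD45B and 2249 CPM of NR4A2, the highest of the 94 cells for both, and over the 91 cells the levels were 151.7 CPM and 18.5 CPM, with 45.1 CPM of CTGF, against 268.99 CPM, 48.7 CPM and 68.4 CPM over the 94. RPL34 was lowest on plate 2, with 77.1 against 135.7 to 155.8.

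On plate 3 SLC25A29 had 1293 CPM against 56.7 to 172.8, PKP2 569.5 against 96.8 to 141.5, KRT7 2758 against 1299.8 to 1676, CLDN1 2496 against 1465 to 1754, and STRA6 351.5 against 45.5 to 115.1. The endothelial and mural list had 276.2 on plate 3 against 57.2 to 104.7, and the chaperone and oxidative stress list was lowest there, with 29295 against 33339 to 33861. On plate 4 the stromal list had 90.9 against 0 to 0.528, TOP2A 12.5 and RSPO3 11.8, both 0 on the other plates, and RSPO3 was at 0 over the 91 cells.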

How the results depend on the processing

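With at least 2000 genes per cell there were 43 supporting cells, and 3.27% of measured genes were in nearly every cell in place of 1.12%. The share of variation between plates was 8.64%. Fewer cells alone raise that share, so it is not read against the 4.08% over 94 cells. The first component then held 3.89% and had a correlation of 0.788 with genes detected. The first component held 4.22% with counts thinned and 5.72% over genes of mean 50 CPM or more. With breadth set at 75% of cells the share was 2.94%, and with the mean set at 100 CPM the count of genes with excess was 110. Without each gene's highest cell, chosen after seeing the data, it was 180. As a difference of mean log2(CPM + 1), 311 genes were 4-fold higher in place of 709, and the median over all genes was -0.41. Without the cells of highest glial and immune marker sums, also chosen after seeing the data, the counts were 382 genes with excess and 706 genes 4-fold higher. Leaving out each plate in turn gave 64 to 82 supporting cells, 1.13 to 1.41% of measured genes in nearly every cell and 361 to 436 with excess. It gave 740 to 849 genes 4-fold higher, all above 709, under a looser rule that asks for 1 plate fewer. The 10 highest genes took 6.63 to 7.24% of reads. Between plates lay 3.32 to 4.49% of variation, a share that also depends on the numbers of plates and cells. The first component held 5.01 to 5.54%, over fewer cells than the 4.70% of all 94, with a correlation of 0.963 to 0.978. Among the named genes past 4-fold, no ratio changed sign over the 91 cells, with the other scaling or without 1 plate. A gene that meets the 4-fold rule has the same sign on each of the 5 plates. Leaving out a plate thus could not reverse it. With 94 cells of a median of 322279 counts, levels of few reads rest on few cells. A ranking per transcript length was not run. No paired analysis was run, since nothing was tested. Both classes were on each of the 5 plates, and the 4-fold rule already reads both on each plate.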

Other observations

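Zonal markers gave a mixed reading in supporting cells. Of 5 extrastriolar markers compared 2 were 4-fold higher, OTOL1 and ALDH1A3, and 1 was 4-fold lower, the homeobox gene MEIS2, with 1.77 ± 3.95 CPM in supporting cells and 38.9 ± 17.1 CPM in other cells. Of 6 striolar markers compared 0 were 4-fold higher and 3 were 4-fold lower, OCM, LOXHD1 and the calcium pump gene ATP2B2, which hair cells express. Of the 94 supporting cells 51 had 0 counts over the 10 gap junction and pannexin genes outside the gate. At a share of 50% of cells, 732 genes reached 10 CPM in supporting cells and 1827 in other cells.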
